A study of Mus musculus with 9 samples.

Results

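The miRNAs described here are 6 species that mark red cells and the vessel wall: miR-451a and miR-144-3p of the erythroid lineage, miR-126-3p and miR-126-5p of endothelium, and miR-143-3p and miR-145-5p of smooth muscle and pericytes. They were taken by name from an array that carries 1247 mouse miRNAs, and all 6 were found, miR-145-5p under the newer name miR-145a-5p. Hippocampal RNA came from male C57BL/6 mice, about 8 weeks old by the methods, which received oropharyngeal aspiration every other day for 4 weeks. The 3 groups were a saline control, PM2.5 (airborne fine particulate matter) at 1 mg/kg and PM2.5 at 5 mg/kg, with 3 mice and 3 single-colour arrays in each. The labels name no genetic change and no other agent for these mice. The sources used here do not state whether blood was flushed from the brain before the hippocampus was dissected, so the tissue may hold blood from all 3 groups. The members were chosen with the difference between 5 mg/kg and control known, so that difference is given below as a description with no test.

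A miRNA is cut from a hairpin precursor, is loaded into an Argonaute protein and pairs with messenger RNAs mainly through its seed, bases 2 to 8 from the 5′ end. miR-144 and miR-451a are made from one transcript that GATA1 drives in red cell precursors, and miR-451a is unusual in being matured by Argonaute 2 in place of Dicer. It stays in circulating red cells, which lack a nucleus. miR-126 lies in an intron of Egfl7, an endothelial gene, and supports signalling of vascular growth factors. miR-143 and miR-145 are made together in smooth muscle and pericytes and promote the contractile state. In whole hippocampus none of these cells is a main component, so the 6 miRNAs serve as markers of blood left in vessels and of the vessels themselves. More cells of a type and more of its RNA per cell cannot be told apart in such bulk RNA.

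The mature sequences of 3 members are shown, those that the RefSeq table holds, with the seed in capitals: both red cell miRNAs and 1 endothelial miRNA. They are written 5′ to 3′ from RefSeq, build GRCm38.p6.
mmu-miR-451a: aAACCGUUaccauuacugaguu
mmu-miR-144-3p: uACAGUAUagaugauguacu
mmu-miR-126-3p: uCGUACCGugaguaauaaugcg
The seeds of the 3 differ, so none of them is grouped with another by seed. miR-451a occupies chr11:78073186-78073207 and miR-144-3p chr11:78073047-78073066, both on the plus strand, and 99 bases separate their hairpins. miR-126-3p, which RefSeq lists as miR-126a-3p, occupies chr2:26591402-26591423 on the plus strand, inside the span of Egfl7. Both array probes of each of the 3 were complementary to the printed sequence over their whole length. Whether other RNAs also bind these probes was not tested.

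Each signal is the summed brightness of the probes of a miRNA in arbitrary fluorescence units, divided by the 75th percentile of its array and put on a log2 scale. Detection calls covered 410 to 436 miRNAs depending on the array and 395 miRNAs on every array, and no spot was saturated. A miRNA was tested where all 3 arrays of at least 1 group detected it, which left 424, all 6 members among them. The neuronal markers miR-124-3p, miR-128-3p, miR-9-5p and miR-9-3p were detected on all 9 arrays. Since 395 miRNAs were, detection alone does not test the label of hippocampus. Values belong to single miRNAs and are not compared in level between miRNAs, since probes differ in brightness. Nothing in the labels separates the mice of a group beyond the replicate number, so p-values measure the spread between these arrays. All 3 control arrays and the first 1 mg/kg array lay in the first row of 1 slide. The other 1 mg/kg arrays and replicates 1 and 2 of the 5 mg/kg group lay in its second row, and replicate 3 of that group lay in the first row of another slide. No 5 mg/kg array shared both slide and row with a control array, so dose and position cannot be told apart in that comparison. Differences by row are therefore given for miR-451a, miR-144-3p, miR-126-3p and miR-143-3p.

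The red cell miRNA miR-451a was higher at 5 mg/kg than in control, and its level at 1 mg/kg was near that of control. On the log2 scale the control arrays read 1.52, 1.87 and 1.72, the 1 mg/kg arrays 1.67, 1.79 and 1.56, and the 5 mg/kg arrays 2.01, 1.90 and 1.98. Every 5 mg/kg array lay above every control array and every 1 mg/kg array, although the highest control array and the lowest 5 mg/kg array were close. The group means were 1.71 ± 0.18 in control, 1.67 ± 0.12 at 1 mg/kg and 1.97 ± 0.06 at 5 mg/kg (SD, n = 3). The log2 difference from control was 0.26 at 5 mg/kg, with a standard error of 0.10, or 1.20-fold. It stood at rank 25 of the 424 differences, of which 6.6% lay wholly above control at that dose. Without control replicate 1, the lowest of the control arrays, the difference was 0.16. The second row of the slide holds both doses, and there the 5 mg/kg arrays exceeded the 1 mg/kg arrays by 0.28, while the third 5 mg/kg array exceeded the controls of the same row position by 0.28. At 1 mg/kg the log2 difference was -0.03 with a standard error of 0.10 (limma, adjusted p = 0.943), with overlapping groups.

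miR-144-3p, the partner of miR-451a on the same transcript, was measured close to the limit of detection. Its summed signal was 11.9, 18.4 and 21.0 units in control, 18.4, 24.1 and 15.8 units at 1 mg/kg and 28.7, 23.3 and 20.0 units at 5 mg/kg, and the first control array did not detect it. The highest 5 mg/kg array was the highest of the 9, but the lowest 5 mg/kg array lay below the highest control array. The spots of a single probe varied by a median of 30.0% and 23.3% (coefficient of variation) for its 2 probes, against 3.62% and 3.36% for those of miR-451a. On the log2 scale its difference from control was 0.40 at 5 mg/kg with a standard error of 0.27, rank 4 of 424. The value at 1 mg/kg was 0.09 with a standard error of 0.27 (limma, adjusted p = 0.943). In the second row of the slide the 5 mg/kg arrays exceeded the 1 mg/kg arrays by 0.54. The third 5 mg/kg array, on another slide, exceeded the control mean by 0.05. The 5 mg/kg value changed sign under another background correction (-0.02) and with the extraction software's own gene signal (-0.44), so its direction changed with the processing of these low signals. The other strand of the hairpin, miR-144-5p, was detected on no array.

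**Figure D1:**
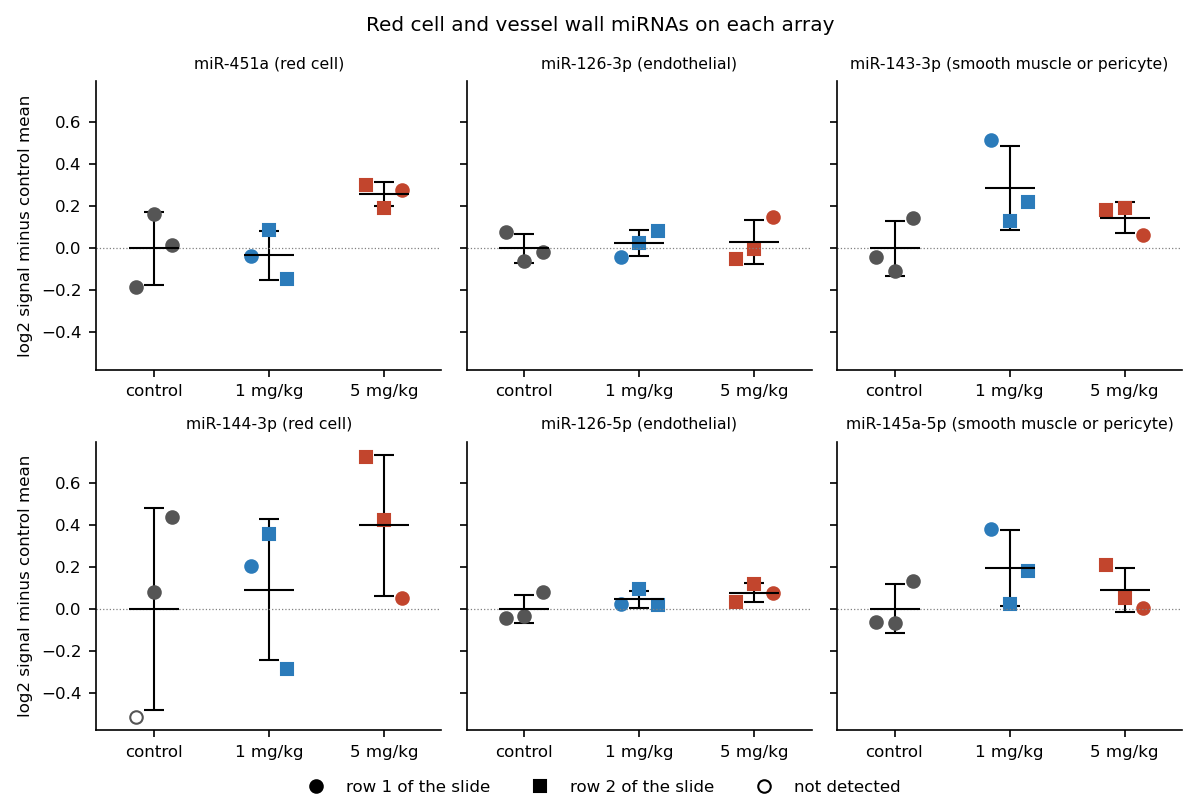
Each panel plots 1 miRNA: points are the 9 arrays as log2 signal minus the control mean, crossbars the group mean and whiskers the SD (n = 3), with the x axis giving the group, circles the first row of a slide and squares the second, and an open symbol a miRNA not detected on that array. The 3 arrays at 5 mg/kg stand above the other 6 for miR-451a, while the groups overlap for the other 5 miRNAs.

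The endothelial pair showed little movement at either dose. miR-126-3p read 2.555, 2.416 and 2.461 in control, 2.438, 2.504 and 2.562 at 1 mg/kg and 2.427, 2.473 and 2.628 at 5 mg/kg on the log2 scale. The groups overlapped throughout, and the highest and lowest arrays of the 9 belonged to the 5 mg/kg group and control. Its log2 difference was 0.02 at 1 mg/kg (SE 0.08, limma adjusted p = 0.943) and 0.03 at 5 mg/kg (SE 0.08), rank 172 of 424. By row the signs differed. The 5 mg/kg arrays minus the 1 mg/kg arrays of the second row gave -0.08, and the third 5 mg/kg array minus the control mean gave 0.15. miR-126-5p, the other strand of that hairpin, read -2.80, -2.79 and -2.68 in control, -2.73, -2.66 and -2.74 at 1 mg/kg and -2.73, -2.64 and -2.68 at 5 mg/kg. These groups overlapped too. Its log2 difference was 0.04 at 1 mg/kg (SE 0.06, limma adjusted p = 0.879) and 0.08 at 5 mg/kg (SE 0.06).

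The smooth muscle and pericyte pair was highest at the lower dose. miR-143-3p read -1.49, -1.56 and -1.30 in control, -0.93, -1.32 and -1.23 at 1 mg/kg and -1.26, -1.26 and -1.39 at 5 mg/kg. The first 1 mg/kg array stood above all others, and the lowest 1 mg/kg array fell just below the highest control array. The log2 difference at 1 mg/kg was 0.29 with a standard error of 0.11, an unadjusted limma p of 0.0338 and an adjusted p of 0.543. It was the 1 member of 6 to pass the unadjusted threshold there, where 2.83% of all tested miRNAs passed as higher and 7.78% in either direction. It was 0.18 without that first array, and past neither threshold. At 5 mg/kg the difference was 0.15 (SE 0.11), and in the second row of the slide the 2 doses differed by 0.01.

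miR-145a-5p followed its cluster partner. Its log2 signal was -3.28, -3.28 and -3.08 in control, -2.83, -3.19 and -3.03 at 1 mg/kg and -3.01, -3.16 and -3.21 at 5 mg/kg. As for miR-143-3p, the first 1 mg/kg array was the highest of the 9, and the groups overlapped. The log2 difference was 0.20 at 1 mg/kg (SE 0.11, limma adjusted p = 0.599) and 0.09 at 5 mg/kg (SE 0.11). The passenger strands miR-143-5p and miR-145a-3p were detected on no array.

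At 1 mg/kg the two-sided exact permutation test of 3 against 3 arrays gave p between 0.2 and 0.8 for the 6 members, where 0.1 is the smallest p this design allows. The control arrays are the same in both comparisons, so the 2 doses are not independent of each other. Of the 6 members, all had a 5 mg/kg mean above control, of which miR-144-3p, miR-126-5p and miR-145a-5p turned below it under normexp background correction, miR-144-3p with the total gene signal and miR-126-3p with the slide as a block. A mean above control was seen for 5 of 6 at 1 mg/kg. Over all 424 tested miRNAs, 48.8% were higher at 5 mg/kg and 39.9% at 1 mg/kg, with median log2 differences of -0.003 and -0.03. Both probes of every member moved the same way as their sum at 5 mg/kg, with log2 differences of 0.27 and 0.25 for the 2 probes of miR-451a and 0.48 and 0.33 for those of miR-144-3p.

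**Figure D2:**
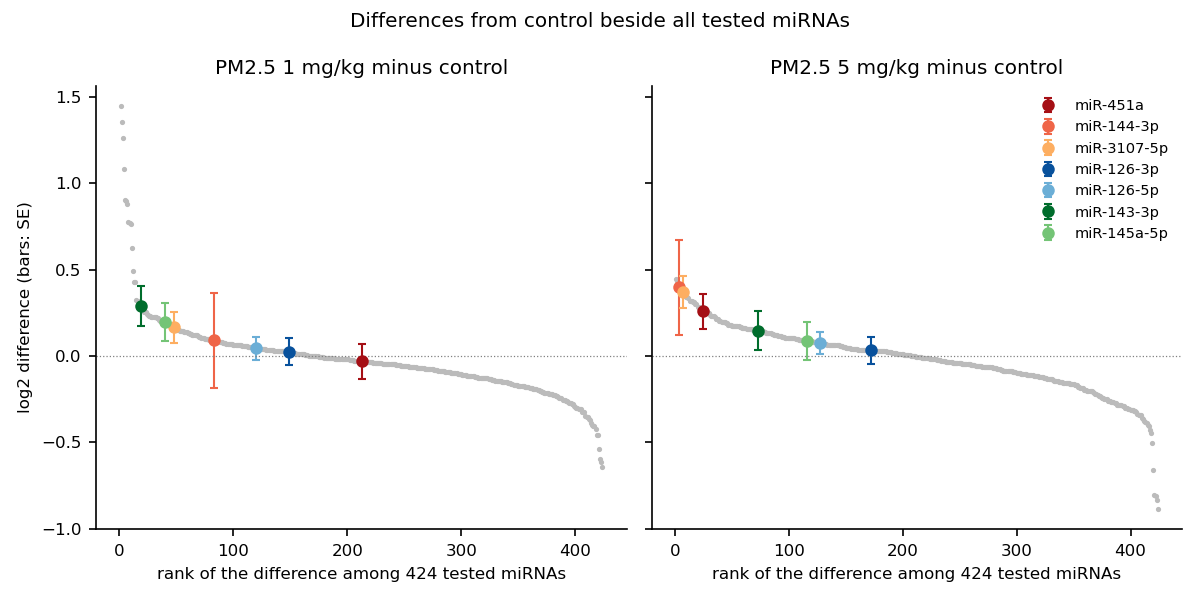
The log2 difference from control (y axis, bars SE of the fit) is plotted against its rank among the 424 tested miRNAs (grey points) for each dose, with the 6 members and miR-3107-5p in colour. At 5 mg/kg miR-144-3p, miR-3107-5p and miR-451a stand at ranks 4, 7 and 25 and miR-126-3p at rank 172, whereas at 1 mg/kg miR-143-3p ranks 19 and miR-451a 213.

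Whether the red cell signal rose relative to the vessel wall was asked within each array, where the scaling between arrays cancels. The log2 ratio of miR-451a over miR-126-3p, set to a mean of 0 in control, was -0.26, 0.23 and 0.03 in control, 0.003, 0.06 and -0.23 at 1 mg/kg and 0.35, 0.20 and 0.13 at 5 mg/kg. One control array thus lay within the range of the 5 mg/kg arrays, although the 5 mg/kg mean was 0.23 ± 0.12 (SD, n = 3) above that of control. Relative to miR-143-3p the mean at 5 mg/kg was 0.11 ± 0.11, and a control array at 0.27 exceeded all 3 of that dose. At 1 mg/kg the ratio to miR-143-3p was lower by 0.32 on average, at -0.55, -0.04 and -0.37 (two-sided exact permutation p = 0.3). Among 8 ratios between members, the lowest exact permutation p at 1 mg/kg was 0.1, for miR-143-3p over miR-145a-5p, and every Benjamini-Hochberg adjusted p was 0.8.

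The ratios of miR-144-3p were also highest at 5 mg/kg on average, with more spread, at 0.37 ± 0.44 over miR-126-3p and 0.25 ± 0.27 over miR-143-3p (5 mg/kg, SD, n = 3). In both of them the 5 mg/kg and control arrays overlapped. With the extraction software's total gene signal the 5 mg/kg differences were -0.44 for miR-144-3p, 0.19 for miR-126-3p and 0.30 for miR-143-3p. Both ratios of miR-144-3p were then below control on average.

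**Figure D3:**
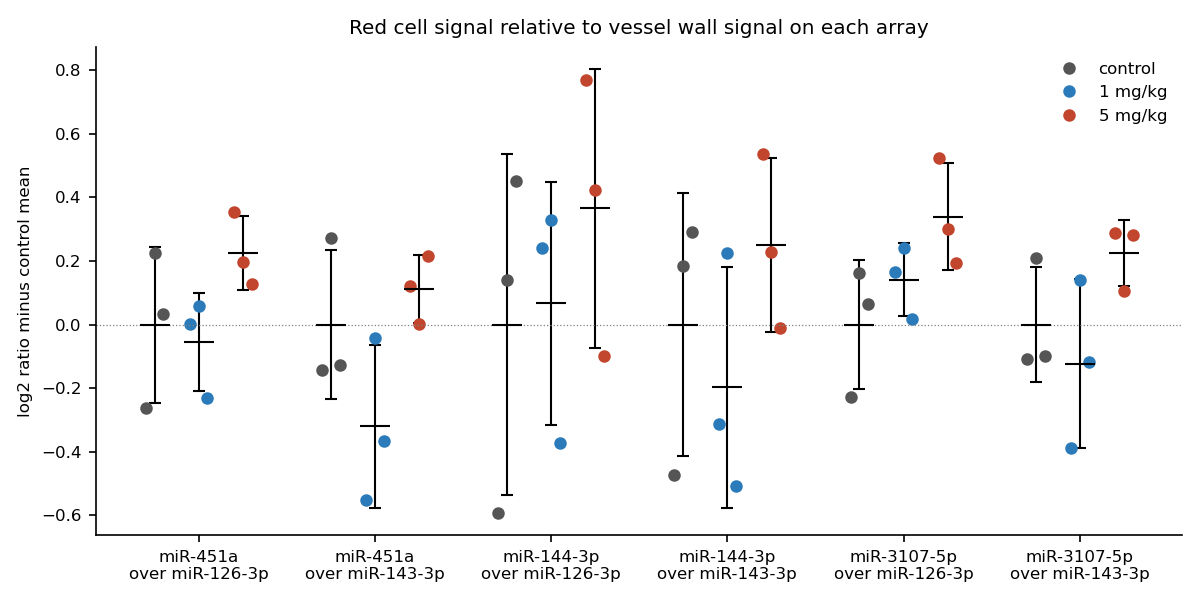
Log2 ratios of 3 red cell miRNAs to an endothelial (miR-126-3p) or smooth muscle (miR-143-3p) miRNA on each array, minus the control mean, are plotted by group (points arrays, crossbars means, whiskers SD, n = 3). The 5 mg/kg mean is above 0 in all 6 ratios, but only miR-3107-5p over miR-126-3p has no control array at the height of a 5 mg/kg array. miR-451a and miR-144-3p were chosen with the 5 mg/kg difference known, and miR-3107-5p was picked for likeness to miR-451a on these arrays. A higher level of these 3 miRNAs at 5 mg/kg is therefore part of the choice.

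Variation between mice of one group was examined apart from dose, by subtracting each group mean and correlating the deviations over 9 arrays with exact permutation within groups. miR-143-3p and miR-145a-5p deviated together (Pearson r = 0.917, exact p = 0.0139, Spearman rho 0.90, exact p = 0.0231). After adjustment over 15 pairs p was 0.208, and r was 0.784 without the 2 arrays farthest from the median. miR-451a and miR-144-3p had r = 0.665 (exact p = 0.144, rho 0.60, exact p = 0.204, adjusted p = 0.486 and 0.694), and r = 0.604 without 2 arrays. None of the 15 pairs had an adjusted p under 0.05, and 2 had an unadjusted exact p under 0.05.

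Between cell types the signs ran differently. Deviations of miR-451a had r = -0.488 with those of miR-126-3p (exact p = 0.185, adjusted 0.486, rho -0.37, exact p = 0.347) and r = -0.204 with those of miR-143-3p (exact p = 0.630, adjusted 0.913, rho -0.48, exact p = 0.296). The 2 strands of miR-126 had r = -0.007 (exact p = 0.981, adjusted 0.981, rho 0.23, exact p = 0.606). miR-144-3p and miR-126-3p ran opposite to each other (r = -0.785, exact p = 0.0417, adjusted p = 0.312, rho -0.63, exact p = 0.116), and r was -0.669 without 2 arrays. Correlations with miR-126-3p depended on the scaling between arrays: the value for miR-451a was 0.27 after quantile normalization and 0.46 with no scaling.

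**Figure D4:**
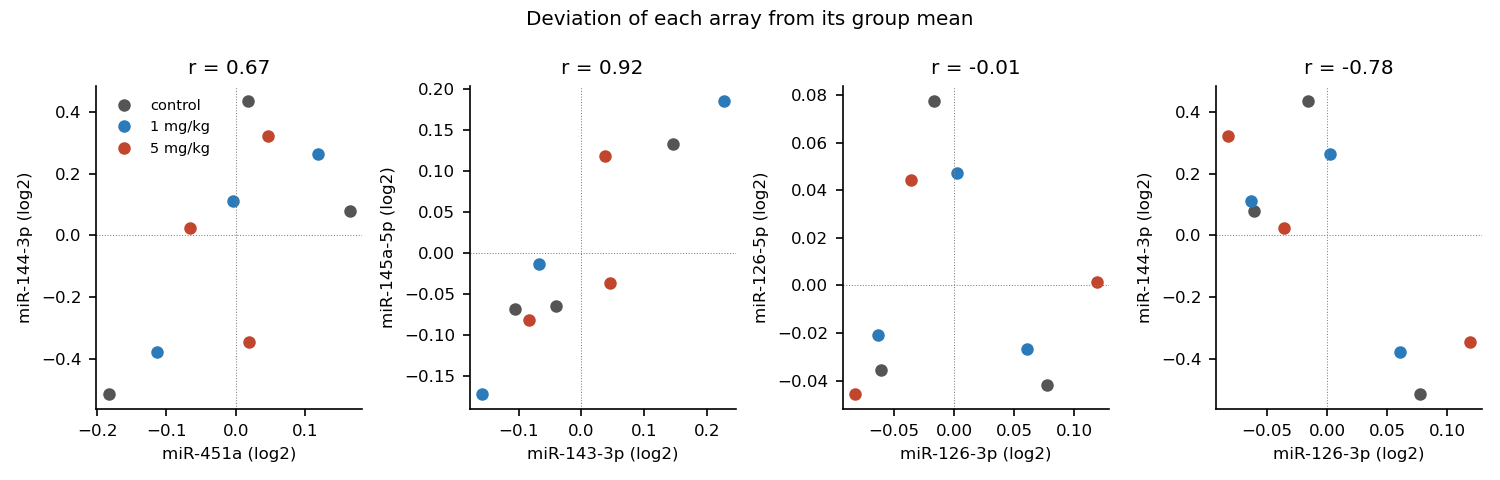
Each panel plots the log2 deviation of 9 arrays from their group means for 1 pair of miRNAs, coloured by group, with Pearson r above it. miR-143-3p and miR-145a-5p lie along a rising line (r = 0.92), and the 2 strands of miR-126 show no shared pattern (r = -0.01).

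The miRNA whose signal followed miR-451a most closely over the 9 arrays, of 418 compared, was miR-3107-5p (r = 0.858). Its probes also carry the name of miR-486-5p in the probe annotation of the array, a miRNA that is abundant in red cells and is also made in muscle. Its hairpin lies at chr8:23142573-23142662 (GRCm38) inside the span of Ank1, the gene of erythrocyte ankyrin. The summed signal of miR-3107-5p was 41.3, 50.3 and 43.0 units in control, 46.7, 61.0 and 55.6 at 1 mg/kg and 64.8, 57.4 and 65.8 at 5 mg/kg. On the log2 scale all 3 arrays of each dose lay above all control arrays, at 5 mg/kg against 6.6% of all tested miRNAs. At 1 mg/kg this was nearly a tie, with the lowest array at -3.462 and the highest control array at -3.463. The log2 means were -3.56 ± 0.13 in control, -3.40 ± 0.09 at 1 mg/kg and -3.19 ± 0.09 at 5 mg/kg (SD, n = 3). The difference was 0.37 at 5 mg/kg (SE 0.09, rank 7 of 424), given with no test since likeness to miR-451a on these arrays brought it forward. At 1 mg/kg it was 0.17 (SE 0.09, limma adjusted p = 0.597), where 4.72% of tested miRNAs lay wholly above control. The 1 mg/kg arrays also entered the likeness to miR-451a, so this p is not independent of the choice. Over the alternatives the 1 mg/kg difference of miR-3107-5p ran down to 6.9e-05. With group means removed, the deviations of miR-3107-5p had r = 0.917 with miR-451a, 0.776 with miR-144-3p and -0.549 with miR-126-3p. A high r with miR-451a is part of the choice and gives no separate support. Even so, in the main processing miR-451a was lower relative to miR-3107-5p at each dose than in control. Their log2 ratio, minus the control mean, averaged -0.20 ± 0.05 at 1 mg/kg and -0.11 ± 0.05 at 5 mg/kg (SD, n = 3). All arrays of each dose lay below all control arrays, although the lowest control array (-0.03) and the highest 5 mg/kg array (-0.07) were close. This ratio was not tested, and the share of other pairs of miRNAs that separate in this way was not counted. With another background correction the 5 mg/kg difference of miR-3107-5p was 0.06. That of miR-451a was 0.25 or more in every alternative other than leaving out an array. Under that background correction the ratio at 5 mg/kg therefore lay above control, so its direction changed with the processing.

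The next 2 miRNAs most like miR-451a were miR-153-5p (r = 0.841) and miR-7b-3p (r = 0.823), which are on none of the blood or vessel lists, and their log2 differences at 5 mg/kg were 0.30 (SE 0.09) and 0.25 (SE 0.13). Since all 3 were picked for likeness over arrays that include the 5 mg/kg group, a higher mean there is part of the choice. miR-126-3p was most like miR-151-5p, miR-181a-5p and miR-27b-3p (r = 0.964, 0.963 and 0.962), none of them on the vessel lists. After quantile normalization these 3 correlations were 0.07, 0.25 and 0.40. miR-143-3p was most like miR-378b, miR-33-5p and miR-3099-3p (r = 0.749, 0.689 and 0.672).

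Marker lists of other blood, vessel and brain cells were counted in the same way. Apart from miR-3107-5p, 27 miRNAs outside the members were listed and 17 could be tested, of which 0 passed an unadjusted limma p of 0.05 at 1 mg/kg and 2 did at 5 mg/kg, where 9.43% of all tested miRNAs passed, 4.01% as higher and 5.42% as lower. None of the 17 passed after adjustment, where limma called 0 of 424 miRNAs at 5 mg/kg (40 before adjustment) and 1 of 424 at 1 mg/kg (0.236%). The 2 were miR-142-3p, which was higher, and miR-92a-3p, which was lower.

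Of the white cell and platelet list, 3 of 4 could be tested. All 3 had a higher mean at 5 mg/kg, against 48.8% of all tested miRNAs, with a median log2 difference of 0.11. In the limma fit miR-142-3p, made across blood lineages, was higher by 0.21 (SE 0.08, adjusted p = 0.469). All its 5 mg/kg arrays lay above all control arrays, against 6.6% of all tested miRNAs. The unadjusted limma p was 0.0344. That call was lost under 8 of 23 alternatives, among them normexp background correction, where the difference was 0.04, and leaving out any one control array or 5 mg/kg replicate 1 or 2. Of the others, miR-223-3p of neutrophils and other myeloid cells differed by 0.11 (SE 0.13, limma adjusted p = 0.817) and miR-150-5p of lymphocytes by 0.04 (SE 0.09, adjusted p = 0.884). The summed level of the list was taken relative to the 75th percentile of the array. It ranged from 0.780 to 0.800 in control, from 0.729 to 0.851 at 1 mg/kg and from 0.806 to 0.881 at 5 mg/kg. On every array most of this sum came from the brightest of the list, miR-150-5p, which differed by 0.04. The sum therefore does not show a rise across the list. It was not tested, and the share of other sets of miRNAs that separate in this way was not counted. miR-142-5p was detected on no array.

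A further 4 miRNAs that are abundant in red cells but also in other tissues did not follow miR-451a. All 4 (miR-16-5p, miR-25-3p, miR-92a-3p and miR-15b-5p) had lower means at 5 mg/kg, with a median log2 difference of -0.16. Of all tested miRNAs 48.8% had a higher mean at that dose. Only miR-92a-3p passed the unadjusted limma threshold among the 4, at -0.31 (SE 0.13, adjusted p = 0.502), with overlapping groups. Its call was lost under 11 of 23 alternatives, with values from -0.58 to -0.16 over all of them. Those included leaving out control replicate 1, where the difference was -0.21, 1 mg/kg replicate 1 or 2, or 5 mg/kg replicate 1 or 2. The red cell species miR-486-3p and miR-363-3p were detected on no array.

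Of the other miRNAs listed as endothelial miR-322-5p alone could be tested, with a log2 difference of -0.01 at 5 mg/kg and -0.04 at 1 mg/kg. That list summed to 0.281 to 0.327 in control and 0.252 to 0.350 at 5 mg/kg. Whether miR-322-5p comes from endothelium in this tissue was not tested. Of the 4 striated muscle miRNAs 3 could be tested, and their log2 differences at 5 mg/kg were -0.16 for miR-1a-3p, -0.29 for miR-133a-3p and -0.37 for miR-133b-3p, with standard errors of 0.27 to 0.30. Among brain cell lists, both oligodendrocyte miRNAs had lower means at 5 mg/kg, at -0.39 for miR-219-5p (SE 0.31) and -0.23 for miR-338-3p (SE 0.27). The neuronal list had a median of 0.02 at that dose, and 2 of its 4 miRNAs had a higher mean, with miR-9-5p at 0.14 (SE 0.07, limma adjusted p = 0.511) and all its 5 mg/kg arrays above control, against 6.6% of all tested miRNAs. The part of blood content, vessel share or these other cell types in the miR-451a difference was not tested.

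**Figure D5:**
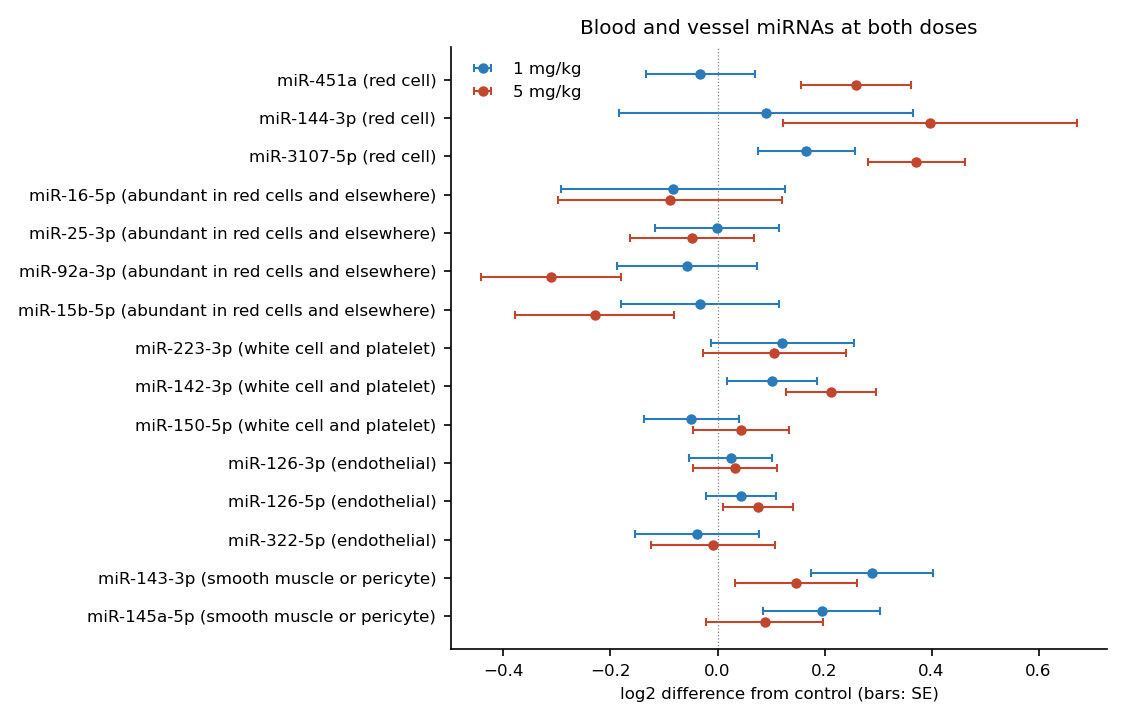
Log2 differences from control (x axis, bars SE of the fit) are plotted for the members and the tested miRNAs of the blood and endothelial lists at 1 mg/kg (blue) and 5 mg/kg (red). miR-144-3p, miR-3107-5p, miR-451a and miR-142-3p have the highest differences at 5 mg/kg (0.40, 0.37, 0.26 and 0.21), and miR-92a-3p has the lowest (-0.31). At that dose miR-126-3p and miR-322-5p lie within their SE of 0, as do miR-16-5p, miR-25-3p, miR-223-3p, miR-150-5p and miR-145a-5p. miR-126-5p, miR-143-3p and miR-15b-5p lie beyond their SE.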

How the data were processed

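Total RNA of 9 hippocampi was labelled with Cy3 and hybridised by the authors to Agilent mouse miRNA arrays (release 19), 1 mouse per array. The deposited scanner files, made per the labels with Agilent Feature Extraction 10.7, give for each spot an intensity already background-subtracted within its array and not normalized between arrays. A deposited log2 table of the same arrays, whose normalization method and centring are not given in the sources used here, served as an alternative.

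Spots with an outlier flag were dropped, spots averaged per probe and probes summed per miRNA. The sum was divided by the 75th percentile over miRNAs detected on all 9 arrays, floored at the lowest detected signal and put on a log2 scale. limma 3.58.1 (R 4.3.3) fitted the 3 groups and gave two-sided p-values, unadjusted (threshold 0.05, the screening level of the study) and Benjamini-Hochberg adjusted over 424 miRNAs. Single values were tested by exact permutation (20 arrangements of 3 against 3 arrays, 216 within groups for correlations). The procedure was tested on simulated data with changes larger than the main differences of the members, independent noise and no effect of row or slide. Those simulations do not show how well differences of the size given here are found. Precision is limited by the number of arrays, 3 per group. No 2 arrays shared a signal at any of 49880 spots, so none was a copy of another.

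The members, lists and tests were chosen with earlier results of these data known. Named miRNAs were the members, listed miRNAs that could be tested, and the 3 tested miRNAs with the highest Pearson r over 9 arrays with miR-451a, miR-126-3p and miR-143-3p. miR-3107-5p was assigned to the red cell list in place of miR-486-5p, through the array's annotation, after its values were seen. Sequences came from RefSeq, which held 3 of the 6 members. Replicate numbers were not treated as pairs: same-numbered arrays of different groups correlated at -0.65 to 0.74 in their deviations. Alternatives covered background correction, summary, scaling, filter, moderation, blocks for replicate, slide and slide row, the deposited table and leaving out each array.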

Additional observations from a re-analysis of the deposited data

How the results depend on the processing

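The log2 difference of miR-451a at 5 mg/kg was positive under all 23 alternatives, from 0.16 to 0.41, the highest with the extraction software's total gene signal (0.41), and from 0.16 to 0.34 with 1 array left out. The ratio of miR-451a to miR-126-3p at 5 mg/kg was 0.10 and that to miR-143-3p 0.04 without control replicate 1, and both were positive in every alternative run.

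With normexp background correction, the difference at 5 mg/kg was -0.018 for miR-144-3p, -0.015 for miR-126-5p and -0.021 for miR-145a-5p, and that at 1 mg/kg was -0.054 for miR-144-3p, -0.022 for miR-126-5p and 0.17 for miR-143-3p, the last no longer past the unadjusted threshold. The likeness of miR-451a to miR-153-5p became -0.088 and to miR-7b-3p -0.013. The counts past the unadjusted threshold were 14 at 1 mg/kg and 17 at 5 mg/kg in place of 33 and 40.

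With the total gene signal, which shifts the median of all miRNAs to 0.10 at 1 mg/kg and 0.14 at 5 mg/kg, the 5 mg/kg differences were -0.44 for miR-144-3p, 0.19 for miR-126-3p, 0.23 for miR-126-5p, 0.30 for miR-143-3p and 0.24 for miR-145a-5p. At 1 mg/kg miR-451a was at 0.11 and miR-145a-5p at 0.33, past the threshold, the 5 mg/kg count was 102, the likeness of miR-451a to miR-7b-3p was -0.77, and r with miR-126-3p was 0.15 for miR-451a and 0.77 for miR-126-5p. With no scaling, which shifts the median to 0.11 at 5 mg/kg, miR-126-3p was at 0.15 and miR-126-5p at 0.19 at 5 mg/kg, miR-451a at 0.077 and miR-145a-5p at 0.30 (past the threshold) at 1 mg/kg, and the same 2 r values were 0.46 and 0.86.

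After quantile normalization the 1 mg/kg differences were 0.045 for miR-451a, -0.014 for miR-126-3p and 0.21 for miR-145a-5p (past the threshold), and the 2 r values 0.27 and 0.14. In the deposited table they were 0.074 for miR-451a and -0.015 for miR-126-3p, miR-144-3p at 5 mg/kg was at 2.22, and r with miR-126-3p was 0.14 for miR-451a, 0.12 for miR-144-3p and 0.050 for miR-126-5p. Scaling to the 75th percentile of all miRNAs gave 0.0039 for miR-451a at 1 mg/kg and r = 0.012 between the strands of miR-126, which was 0.36 with scaling to the median.

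With no filter 780 miRNAs passed at 1 mg/kg. miR-143-3p kept its difference of 0.29 at 1 mg/kg but was not past the threshold with no filter, with the 2 groups alone or without moderated variances. With the slide as a block the 5 mg/kg count was 120 and miR-126-3p was at -0.027. With the slide row as a block the counts were 8 and 14, miR-144-3p at 1 mg/kg was at -0.026 and r between the miR-126 strands was 0.025. With the replicate block both counts were 36, the difference of miR-451a at 5 mg/kg was 0.26, and r of miR-451a with miR-143-3p was 0.050. This block changed no other call.

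With each array left out in turn, the counts were 12 to 49 at 1 mg/kg and 19 to 122 at 5 mg/kg. The 1 mg/kg differences ran from -0.13 to 0.051 for miR-451a, -0.17 to 0.30 for miR-144-3p, -0.0062 to 0.057 for miR-126-3p, 0.18 to 0.37 for miR-143-3p and 0.10 to 0.28 for miR-145a-5p, and that of miR-126-3p at 5 mg/kg from -0.029 to 0.073. The value of r ran from -0.26 to 0.26 between the miR-126 strands and from -0.43 to 0.062 between miR-451a and miR-143-3p. The causes of these changes were not tested, and 3 arrays per group limit the precision of all of them.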
